A study of Drosophila melanogaster with 32 samples.

Results

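The gustatory receptor (Gr) and ionotropic receptor (Ir) genes are the receptors with which flies taste, smell acids and amines, and sense temperature and humidity. The members are the genes of the count files whose FlyBase symbol starts with Gr or Ir, then a number and a letter. There were 126 of them, 60 Gr and 66 Ir, among 17559 genes. Of the 126, 120 are annotated as protein-coding and 6 as pseudogenes.

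The study asked how Hsp70 bears on memory and on gene expression in Drosophila melanogaster. RNA was sequenced from the heads of adult males of 4 strains, named w+hsp70-, hsp70-, hsp70-4c and hsp70-1c in the labels, which do not describe the alleles, the age of the flies or the training. The w+hsp70- and hsp70- strains had 3 naive libraries and 3 libraries at 5 h after training each. The hsp70-4c and hsp70-1c strains had 4 naive libraries, 3 at 5 h and 3 at 24 h each. Each of the 32 libraries came from the pooled heads of about 100 flies, so a value is a mean over many animals and over all cells of the head. The strain is also the genetic background and the set of libraries, and these cannot be told apart.

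Ionotropic receptors descend from synaptic glutamate receptors. Most of them need a co-receptor (Ir8a, Ir25a, Ir76b or Ir93a) beside a tuning receptor that sets what the neuron responds to, and many tuning receptors are used in the coeloconic sensilla, the sacculus and the arista of the antenna. Gustatory receptors are unrelated membrane proteins, used mostly in taste neurons of the labellum, legs and pharynx, where separate neurons detect sugars and bitter compounds. Each of these receptors is typically made in a small number of sensory neurons.

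The libraries held 4542145 to 10344890 reads assigned to genes. The members took 631 to 2495 reads per library and 50965 in all, and 63 to 81 members had a read in a given library. Over the 32 libraries together, 28 members had 1 to 9 reads, 56 had 10 to 99 and 36 had 100 or more. The other 6 had no read. These 6 were Gr10a, Gr64b, Gr64c, Gr64d, Gr64e and Ir75d, and from 90.7 to 100% of their exon bases lie under exons of another gene on the same strand (Gr64b under Gr64c, Gr64d under Gr64e, Gr10a under the odorant receptor gene Or10a, Ir75d under COX6AL2). No other member had so large a share. Of 355 genes in all whose exons lie wholly under exons of the same strand, 129 had a read, and the part of the overlap in these zeros was not tested. The 0 of these 6 members was not read as absence. Members that met the filter on low counts were tested: 26 members entered at least 1 of the planned fits, 11 entered all of them and 100 entered none.

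Ir85a, on chromosome arm 3R, was the most abundant member, at 59.9 CPM per kb of exon (CPM are reads of a gene scaled to the total of its library), and its 29831 reads were 58.5% of all reads of the members. Next per kb of exon came Ir62a at 5.06, the co-receptor Ir76b at 3.75, the acid receptors Ir75a at 3.10 and Ir75b at 2.70, the co-receptor Ir25a at 2.36 and Ir31a, an acid receptor of the antenna, at 1.91. The most abundant Gr was Gr63a at 1.77 CPM per kb, followed among the first 10 members by Ir68a, a receptor for moist air, at 1.74 and Ir51b at 1.58. The median over all genes with a read was 3.13 CPM per kb, which 3 members exceeded. Most receptor genes were thus measured from few reads, and in pooled heads fewer cells of a type and less RNA per cell cannot be told apart.

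**Figure D1:**
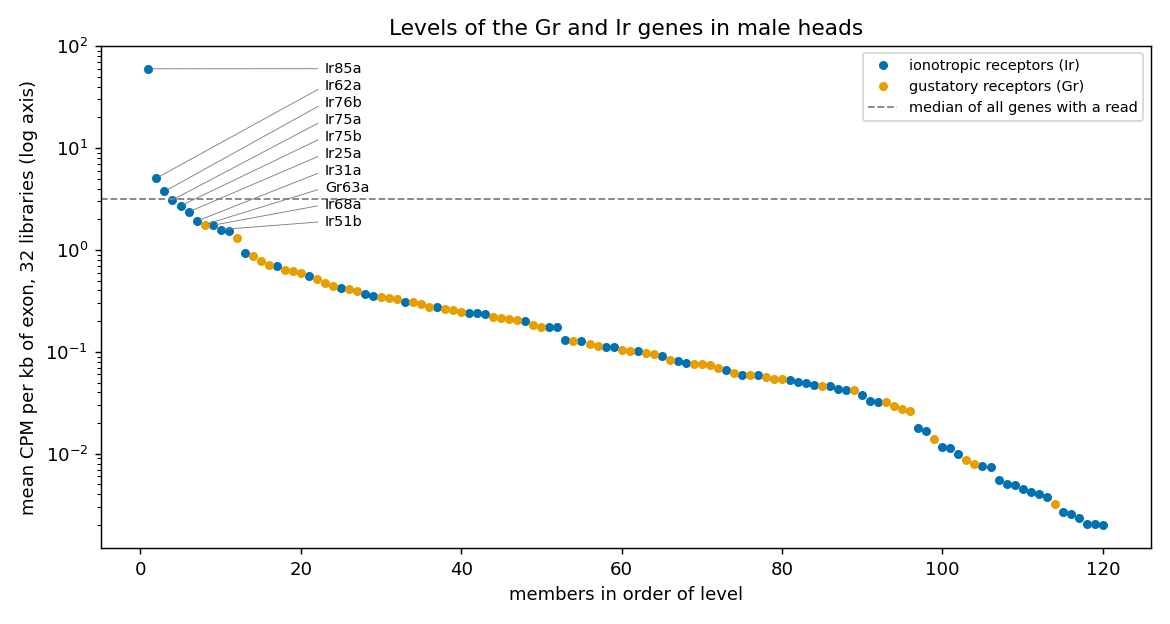
Mean level over the 32 libraries of each member with a read, in CPM per kb of exon on a log axis, ordered from highest to lowest. Ir85a stands at 59.9 CPM per kb, Ir62a and Ir76b lie above the median of all genes with a read (3.13, dashed), and the most abundant Gr, Gr63a, lies at 1.77.

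By role, the 4 co-receptors summed to 10.9 to 26.3 CPM per library (median 21.0). Ir25a and Ir76b, the co-receptors of the widest use, averaged 8.45 and 8.65 CPM, Ir8a, the partner of acid receptors, averaged 2.65 CPM, and Ir93a, needed for sensing temperature and humidity, averaged 0.66 CPM. The 13 antennal tuning receptors summed to 17.8 to 64.0 CPM (median 22.8), and the high end was made of hsp70-4c libraries. Among them Ir76a, an amine receptor, averaged 3.25 CPM, Ir64a, an acid receptor of the sacculus, averaged 1.79, Ir21a, a cooling receptor, averaged 1.47, and Ir40a, a receptor for dry air, averaged 1.25. Ir84a, the receptor for phenylacetic acid, averaged 0.53 CPM, Ir92a, an ammonia receptor, averaged 0.48 CPM, and Ir41a, a polyamine receptor, averaged 0.41 CPM.

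Of the 9 sugar receptors, 4 had no read (above) and the others were low. Gr64f, the partner of most sugar receptors, averaged 1.03 CPM, the trehalose receptor Gr5a averaged 0.89 CPM, and Gr64a and Gr61a averaged 0.41 and 0.40 CPM. The carbon dioxide receptor is made of Gr21a and Gr63a, which averaged 0.77 and 2.60 CPM. Of the receptors used in many bitter neurons, Gr66a averaged 2.05 CPM, Gr39a 1.81, Gr33a 1.43, Gr32a 1.02 and Gr89a 0.29. Gr28b, whose isoforms serve taste, warmth and light sensing, averaged 1.77 CPM, against 0.08 CPM for its neighbour in the family Gr28a, which had 18 reads in all libraries together.

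Among naive flies the strains differed in 3 of the 21 members tested, Ir75a, Ir75b and Ir85a, and in none of the 7 Gr tested (edgeR's quasi-likelihood F test over the 4 strains, adjusted p under 0.05 over all genes). In the same test 17.7% of all genes tested were called, so the share of members called was not above that of other genes. The adjusted p was 1.67e-07 for Ir75a, 6.33e-08 for Ir75b and 0.000289 for Ir85a. In the trained libraries at 5 h, where 13% of all genes were called, 2 of 21 members differed among strains, again Ir75a (adjusted p = 5.67e-05) and Ir75b (adjusted p = 2.24e-05, edgeR). At an unadjusted p under 0.05, 7 of the 21 members passed in naive flies and 4 at 5 h.

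Ir75a and Ir75b, receptors for short-chain carboxylic acids in coeloconic neurons of the antenna, were high in every library of hsp70-4c and low in every other library. Ir75a was at 8.74, 10.4, 13.4 and 19.6 CPM in the 4 naive hsp70-4c libraries, at 7.85, 15.7 and 25.2 CPM at 5 h, and at 9.21, 25.4 and 18.7 CPM at 24 h. It was at 0.91 to 2.52 CPM in w+hsp70-, at 0.84 to 2.59 CPM in hsp70- and at 1.49 to 3.18 CPM in hsp70-1c, whatever the time. No library of the other strains reached the lowest of hsp70-4c.

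Ir75b followed the same order of strains. It was at 8.74, 8.93, 13.1 and 16.5 CPM in the naive hsp70-4c libraries, at 6.94, 9.86 and 17.7 CPM at 5 h, and at 10.6, 20.6 and 15.8 CPM at 24 h, against 0.21 to 2.21 CPM in the 22 libraries of the other strains. Those low levels rest on few reads: the naive hsp70- libraries had 1 to 6 reads of Ir75b each. The mean over the hsp70-4c libraries was 8.01 times that over the other strains for Ir75a and 9.98 times for Ir75b.

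**Figure D2:**
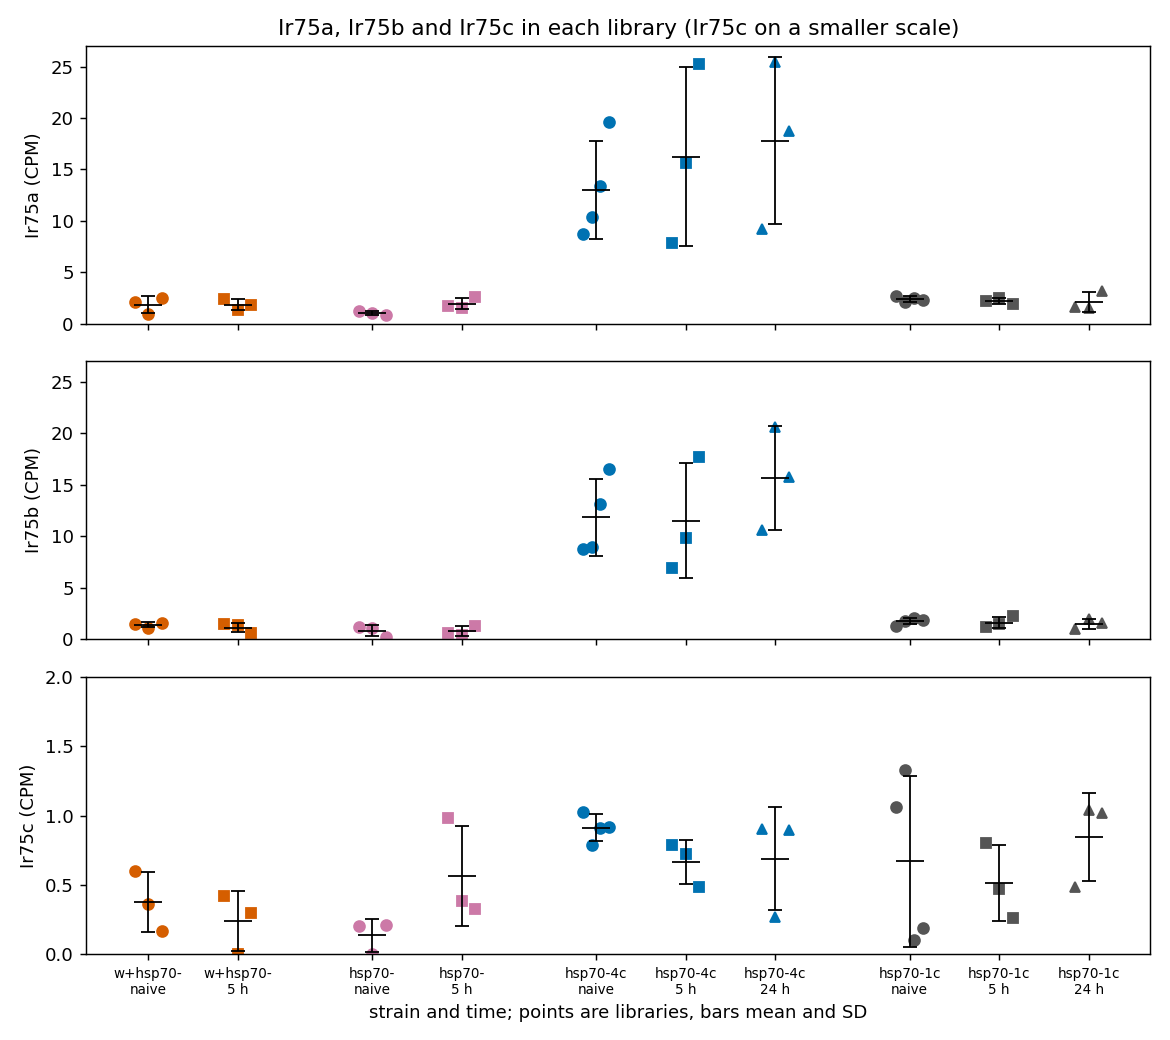
Ir75a, Ir75b and Ir75c in CPM in each of the 32 libraries by strain and time, with the mean and SD of each group; Ir75c has a smaller scale. Every hsp70-4c library lies above every other library for Ir75a (7.85 to 25.4 against 0.84 to 3.18 CPM) and Ir75b (6.94 to 20.6 against 0.21 to 2.21 CPM), whereas for Ir75c the strains overlap.

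In naive flies of hsp70-4c against hsp70-1c, both genes rose, by 2.41 (SE 0.26, adjusted p = 2.52e-06) for Ir75a and 2.73 (SE 0.26, adjusted p = 7.35e-07) for Ir75b on the log2 scale (edgeR). These were the only 2 of 21 members called, where 10.1% of all genes were called and 4.22% were called higher. The trained flies were separate libraries and gave differences of like size. At 5 h, where 5.61% of all genes were called, Ir75a was higher in hsp70-4c by 2.87 (SE 0.37, edgeR adjusted p = 0.000254) and Ir75b by 2.87 (SE 0.39, edgeR adjusted p = 0.00027). At 24 h, where 4.2% of all genes were called, they were higher by 3.08 (SE 0.48, edgeR adjusted p = 0.0164) and 3.42 (SE 0.33, edgeR adjusted p = 0.00038).

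The w+hsp70- strain against hsp70-4c gave the converse. In naive flies, where 9.91% of all genes were called, Ir75a fell by 2.78 (SE 0.31, adjusted p = 5.47e-06) and Ir75b fell by 3.08 (SE 0.32, adjusted p = 2.24e-06, edgeR) on the log2 scale. At 5 h, where 9.3% of all genes were called, they fell by 3.12 (SE 0.40) and 3.36 (SE 0.43). These comparisons share the hsp70-4c libraries with those above. In naive hsp70- against hsp70-1c the differences were -1.21 (SE 0.44, adjusted p = 0.106) for Ir75a and -1.07 (SE 0.46, adjusted p = 0.188) for Ir75b, which did not pass the test (edgeR).

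Training did not move either gene past the test. In hsp70-4c, 5 h against naive differed by 0.34 (SE 0.49) for Ir75a and by -0.02 (SE 0.38) for Ir75b, and 24 h against naive by 0.46 (SE 0.48) and 0.41 (SE 0.37), on the log2 scale (edgeR). These values depend on the fit. A further edgeR fit took the share of reads assigned to no annotated feature as a covariate. At 5 h Ir75a then differed by 1.39 (SE 0.53, edgeR adjusted p = 0.175) and Ir75b by 0.90 (SE 0.36, adjusted p = 0.171). At 24 h the differences were 1.86 (SE 0.62, edgeR adjusted p = 0.229) and 1.61 (SE 0.42, adjusted p = 0.156). None passed the test either. That share was 67.4 ± 1.01% in naive hsp70-4c, 65.2 ± 1.18% at 5 h and 64.7 ± 0.58% at 24 h (SD, n = 4, 3 and 3). Over the 10 hsp70-4c libraries the levels of Ir75a and Ir75b went together (Pearson's r = 0.938, adjusted permutation p = 0.00018; Spearman's rho = 0.939, adjusted permutation p = 0.00093), and r was 0.884 without the 2 libraries farthest from the median.

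The antennal markers differed in some of these comparisons too. The summed level of 14 markers of the antenna and olfactory sensilla, such as the odorant co-receptor Orco and the binding proteins lush and Obp28a, was 4411 to 4963 CPM in naive hsp70-4c and 3621 to 4499 CPM in naive hsp70-1c, and none of the 14 was at 0. Of the 14, 2 were higher in naive hsp70-4c and none was lower, where 10.1% of all genes were called. They were Jhedup, by 0.78 (SE 0.11), and Obp28a, by 0.53 (SE 0.13), on the log2 scale. In naive w+hsp70- against hsp70-4c, where Ir75a and Ir75b were lower and 9.91% of all genes were called, 6 of the 14 fell and none rose. Among them were Jhedup by 1.52 (SE 0.13), Obp19a by 1.10 (SE 0.16), Orco by 0.74 (SE 0.14) and Obp28a by 0.61 (SE 0.14), and the sum was 2231 to 3929 CPM in naive w+hsp70- and 4411 to 4963 CPM in naive hsp70-4c. The part of these markers in the levels of Ir75a and Ir75b was not tested. Within the hsp70-4c libraries the sum ran against Ir75a (r = -0.89, adjusted permutation p = 0.00057; rho = -0.745, adjusted permutation p = 0.0173) and Ir75b (r = -0.808, adjusted permutation p = 0.00351; rho = -0.745, adjusted permutation p = 0.0173). Without the 2 farthest libraries r was -0.739 and -0.676. These relations were chosen after the values were seen, and 3 were computed. Their permutations mixed the hsp70-4c libraries whatever their time or replicate number, so differences shared by time or number enter these p-values. Some marker sums of other tissues also differed in naive flies. Photoreceptor markers summed to 23716 ± 1852 CPM in hsp70-4c and 31966 ± 978 CPM in hsp70-1c. Fat body markers summed to 2924 ± 404 and 5293 ± 617 CPM in the same order (SD, n = 4 each). Single genes of both lists were called in both directions, so the sums do not stand for every marker. On the log2 scale Rh6 differed by -4.36 (SE 0.11), ninaE by -0.51, Rh4 by -0.47 and Rh3 by 0.47. Lsp1alpha differed by -4.45 (SE 0.43), Lsp1beta by -2.70 (SE 0.40) and Lsp1gamma by 6.42 (SE 0.60). The sums of muscle and of neuron markers overlapped between the 2 strains. The part of these tissues was not tested either.

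None of the other antennal tuning receptors was called. Of the 8 antennal tuning receptors tested in naive hsp70-4c against hsp70-1c, Ir75a and Ir75b were called and the median log2 difference was -0.01, against -0.002 over all genes tested. Ir8a, the co-receptor that acid receptors such as Ir75a work with, was at 3.0 ± 0.71 CPM in naive hsp70-4c and 3.49 ± 0.94 CPM in naive hsp70-1c (SD, n = 4 each). Ir64a, which also works with Ir8a, was at 1.26 ± 0.23 CPM in naive hsp70-4c and 2.29 ± 0.78 CPM in naive hsp70-1c, and did not pass the test.

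**Figure D3:**
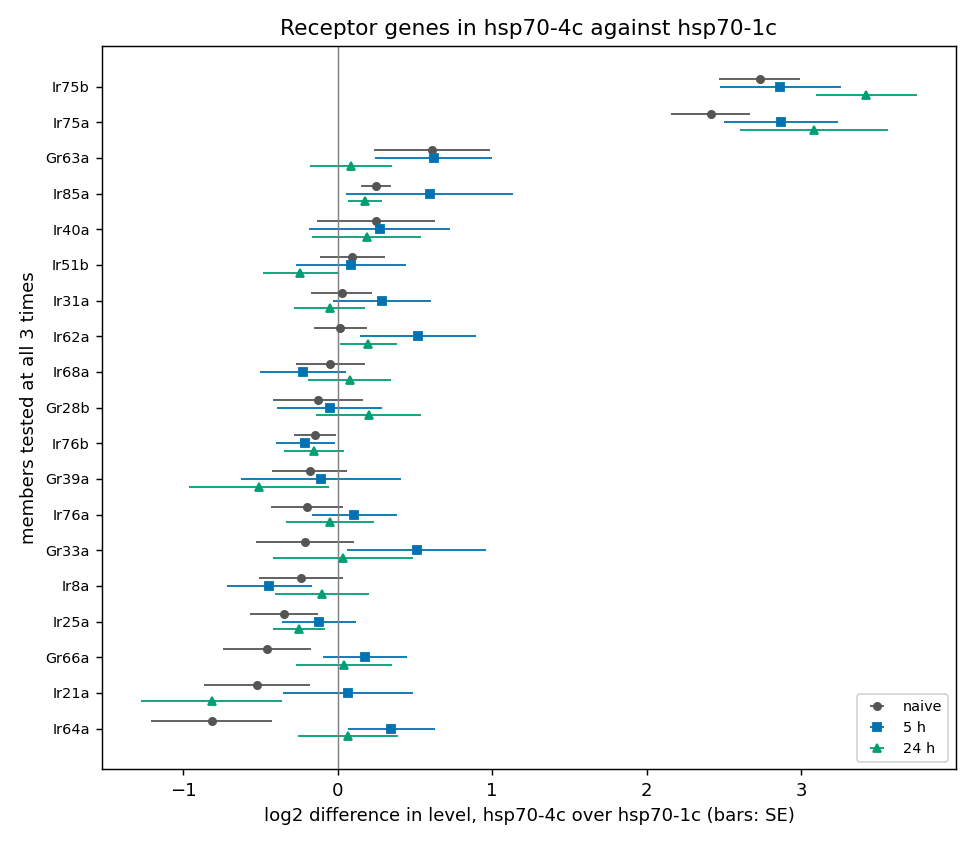
Log2 difference of hsp70-4c over hsp70-1c, with its SE, for the 19 members tested at all 3 times. Ir75a and Ir75b lie between 2.41 and 3.42 at naive, 5 h and 24 h, and the other members lie closer to 0, some with errors that do not cross it.

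Ir75a and Ir75b are neighbours in the genome. In build dm6 Ir75a lies on chromosome 3L at 17815570 to 17817921 and Ir75b at 17818073 to 17820193, with Ir75c, a further acid receptor, at 17820493 to 17822834, all on the minus strand. The gaps are 151 bases between Ir75a and Ir75b and 299 bases between Ir75b and Ir75c. The exons of the 3 genes overlap no exon of another gene.

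Ir75c did not separate hsp70-4c from hsp70-1c as its neighbours did. It was at 0.91 ± 0.10 CPM in naive hsp70-4c and 0.67 ± 0.62 CPM in naive hsp70-1c (SD, n = 4 each), with 29 and 20 reads, and it was too low to be tested. Across all times it was at 0.27 to 1.03 CPM in hsp70-4c, within the range of hsp70-1c (0.10 to 1.32 CPM). In w+hsp70- it was at 0 to 0.60 CPM and in hsp70- at 0 to 0.98 CPM. The naive means of w+hsp70- and hsp70-, 0.38 and 0.14 CPM, were below the 0.91 CPM of naive hsp70-4c.

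Within 60 kb to either side of the cluster, 23 other genes are annotated and 14 were tested in naive flies. Of these, 2 were called between hsp70-4c and hsp70-1c, both higher, where 10.1% of all genes were called. Cln3, the fly counterpart of a human gene of lysosomal storage disease, starts 6.07 kb from the start of Ir75b, downstream of Ir75a, and was higher by 0.81 (SE 0.16, edgeR adjusted p = 0.00367). CG5535, 36.6 kb away on the other side, was higher by 0.82 (SE 0.14, edgeR adjusted p = 0.00057). Grd, which encodes a subunit of a ligand-gated chloride channel family and starts 3.14 kb away beyond Ir75c, differed by 0.21 (SE 0.09, edgeR adjusted p = 0.159).

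In trained flies, where 5.61% of all genes were called at 5 h and 4.2% at 24 h, the neighbours gave 1 call. At 5 h it was 1 of 13, CG32191, lower by 0.59 (SE 0.14, edgeR adjusted p = 0.0152), and Cln3 differed by 0.71 (SE 0.20, edgeR adjusted p = 0.0661). At 24 h none of 13 was called, and Cln3 differed by 0.64 (SE 0.20, edgeR adjusted p = 0.14). Cln3 was thus 0.64 to 0.81 higher at the 3 times, and passed the test in naive flies only.

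**Figure D4:**
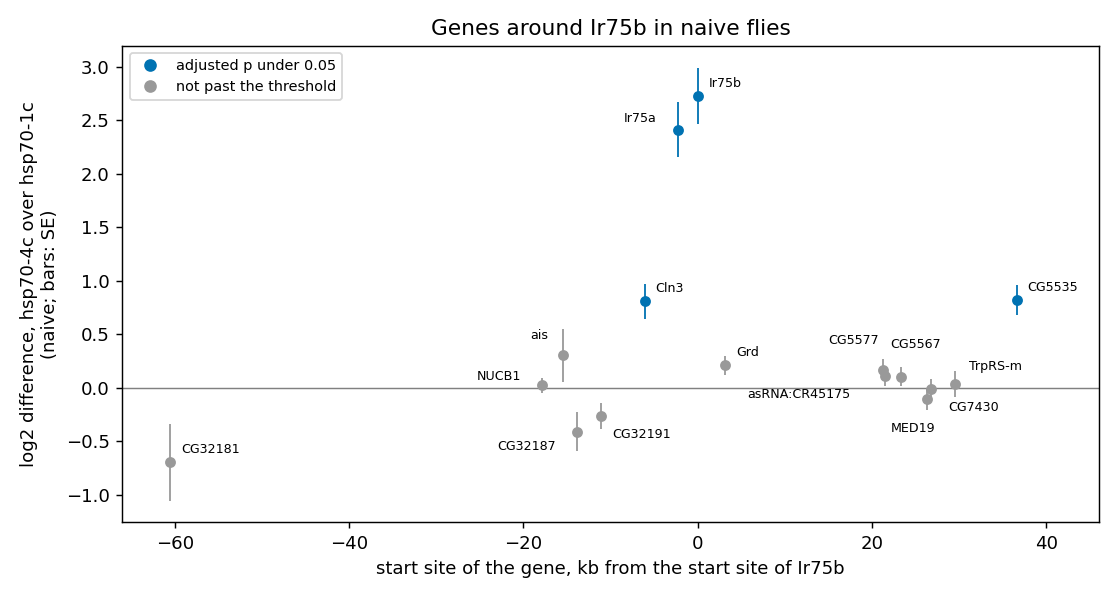
Log2 difference of hsp70-4c over hsp70-1c in naive flies, with its SE, for each tested gene around Ir75b, against the distance in kb of its start site from that of Ir75b. Ir75a (2.41) and Ir75b (2.73) stand above all neighbours, of which Cln3 (0.81) and CG5535 (0.82) also passed the test.

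Ir85a differed among naive strains by less than 1 log2 unit. It was at 106, 119 and 140 CPM in naive w+hsp70-, at 94.1, 103 and 105 CPM in naive hsp70-, at 153, 176, 178 and 178 CPM in naive hsp70-4c, and at 129, 136, 139 and 166 CPM in naive hsp70-1c. The naive hsp70- libraries all lay below the naive hsp70-1c libraries, and the naive w+hsp70- libraries all lay below the naive hsp70-4c libraries. Ir85a fell by 0.51 (SE 0.11, adjusted p = 0.00651) in hsp70- against hsp70-1c, where it was the only member of 21 called and 7.53% of all genes were called. It fell by 0.49 (SE 0.11, adjusted p = 0.00497) in w+hsp70- against hsp70-4c (edgeR). In a fit of all 32 libraries the differences were -0.50 in each, and neither was called (adjusted p = 0.418 and 0.397, edgeR). Leaving out 1 library gave 1 to 3 members called in naive hsp70- against hsp70-1c. At 5 h the strains did not differ in Ir85a past the test (adjusted p = 0.651, edgeR), but they did with the covariate described below (adjusted p = 0.0074, edgeR).

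At 5 h after training hsp70-1c was the only strain with a member called. Ir85a was at 97.2, 98.3 and 116 CPM at 5 h, against 129, 136, 139 and 166 CPM in naive hsp70-1c, and so below every naive library. It fell by 0.46 on the log2 scale (SE 0.11, edgeR adjusted p = 0.038), 1 of 20 members tested, where 3.51% of all genes were called. The call was lost in a fit of all 32 libraries together (adjusted p = 0.501), with the replicate number as a block (adjusted p = 0.1), and without 5 h replicate 2 (adjusted p = 0.164), 5 h replicate 3 (adjusted p = 0.109), naive replicate 3 (adjusted p = 0.0681) or naive replicate 4 (adjusted p = 0.103, all edgeR). The summed level of 12 fat body markers was 2470 to 3056 CPM at 5 h in hsp70-1c and 4650 to 6022 CPM in naive hsp70-1c. Other marker sums separated the same groups too. Muscle markers summed to 1620 to 1819 CPM at 5 h and 1964 to 2541 CPM in naive libraries. Photoreceptor markers were higher at 5 h, at 38635.1 to 39533.4 CPM against 30796.5 to 33166.7 CPM. The part of these lists in the result was not tested.

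Ir85a went with the share of a library's reads that the counting assigned to no annotated feature. This share was 58.1 to 68.7% over the libraries. It may include reads in introns, as the feature type and strand setting are not given in the sources used here. Its mean was 64.0 ± 1.85% in naive hsp70- and 66.8 ± 1.40% in naive hsp70-1c, and 65.1 ± 0.78% in naive w+hsp70- and 67.4 ± 1.01% in naive hsp70-4c (SD, n = 3 or 4). In hsp70-1c it was 63.6 ± 1.26% at 5 h (n = 3), against the 66.8% of its naive libraries. The lowest level of Ir85a, 22.0 CPM, was in hsp70- 5 h replicate 2, the library with the lowest share (58.1%). The next lowest, 61.7 CPM, was in w+hsp70- 5 h replicate 2, with the next lowest share (61.8%).

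Of the 21 members tested in naive flies, 4 went with this share over the 32 libraries past an adjusted p of 0.05 for Pearson's r, and Ir85a (r = 0.844, adjusted permutation p = 0.000105; rho = 0.749, adjusted permutation p = 0.000105) and Ir62a (r = 0.796, adjusted permutation p = 0.000105; rho = 0.764, adjusted permutation p = 0.000105) had the highest r. Without the 2 libraries farthest from the median share, r was 0.719 for Ir85a and 0.689 for Ir62a. The other 2 were Ir51b (r = 0.601) and Gr39a (r = 0.569), each with an adjusted permutation p of 0.00231. Their rho was 0.449 (adjusted permutation p = 0.0542) and 0.600 (adjusted permutation p = 0.0028). Without the 2 farthest libraries their r was 0.335 and 0.499. Within each strain r for Ir85a was 0.939 in w+hsp70- (n = 6, adjusted exact permutation p = 0.0148), 0.937 in hsp70- (n = 6, adjusted exact permutation p = 0.00741), 0.919 in hsp70-4c and 0.937 in hsp70-1c (n = 10 each, adjusted permutation p = 0.00132 and 0.00104), over 8 relations computed. Spearman's coefficient was 0.886, 0.943, 0.806 and 0.952 in the same order, with adjusted permutation p of 0.0381, 0.0267, 0.0205 and 0.0008, and r without the 2 farthest libraries was 0.619, 0.985, 0.896 and 0.852. For Ir62a r was 0.499, 0.874, 0.823 and 0.790 in that order of strains, with adjusted permutation p of 0.326, 0.0365, 0.00992 and 0.00992. Its rho was 0.714, 0.886, 0.806 and 0.770 (adjusted permutation p = 0.136, 0.0381, 0.0205 and 0.0257). Ir62a thus did not pass in w+hsp70-. Without the 2 farthest libraries its r was 0.39, 0.50, 0.75 and 0.71.

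With the share as a covariate in the fit, a setting chosen after the data were seen, no call of Ir85a named above held. The difference became -0.27 (SE 0.12, adjusted p = 0.209) in naive hsp70- against hsp70-1c, -0.30 (SE 0.10, adjusted p = 0.107) in naive w+hsp70- against hsp70-4c, and -0.11 (SE 0.14, adjusted p = 0.972) at 5 h in hsp70-1c (edgeR). The groups compared did not overlap in the share. It was 61.9 to 65.5% in naive hsp70-, 65.6 to 68.7% in naive hsp70-1c and 62.3 to 64.8% in hsp70-1c at 5 h. It was 64.3 to 65.8% in naive w+hsp70- and 65.9 to 68.1% in naive hsp70-4c. The share and the groups thus cannot be told apart well in this fit. Many other genes lost their calls in this fit. Over all genes 445 were called in naive hsp70- against hsp70-1c, against 788 without the covariate, 723 against 1037 in naive w+hsp70- against hsp70-4c, and 5 against 369 at 5 h in hsp70-1c. At 5 h the covariate gave Ir85a a call among the 4 strains (adjusted p = 0.0074, edgeR) that it did not have without it. The calls of Ir75a and Ir75b held in that fit, at 2.38 and 2.65 in naive hsp70-4c against hsp70-1c.

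**Figure D5:**
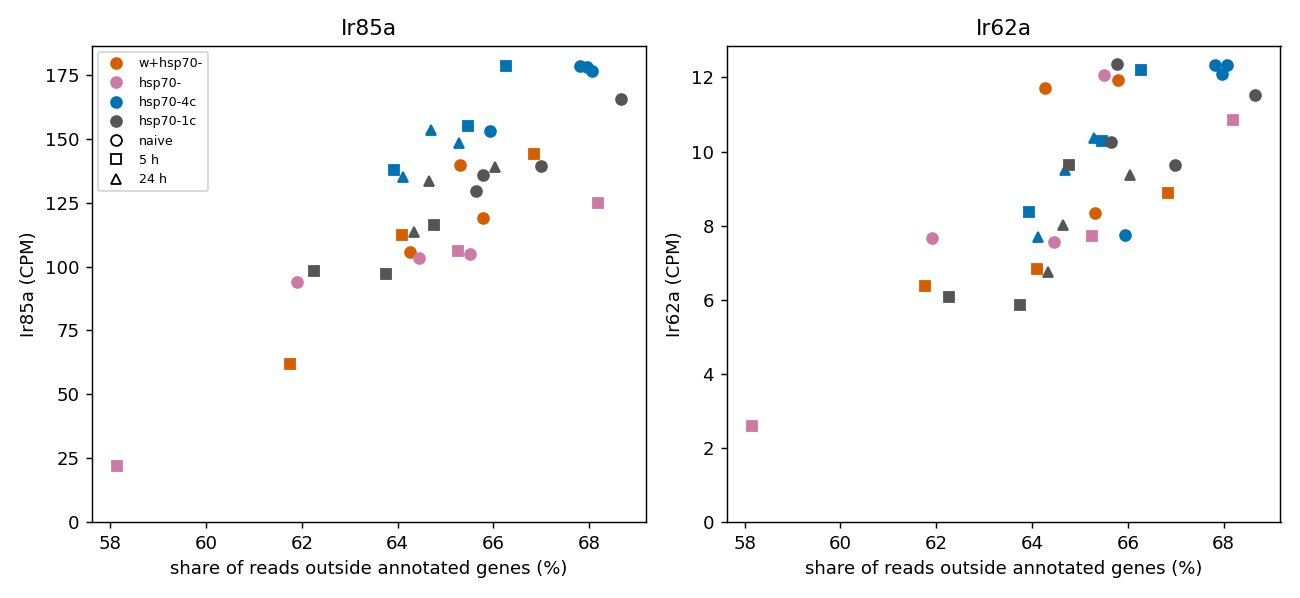
Ir85a and Ir62a in CPM against the percentage of a library's reads assigned to no annotated feature (outside annotated genes on the axis). There is 1 point per library, coloured by strain with a shape for each time. Both levels are higher where the share is higher (r = 0.844 and 0.796 over 32 libraries), and the hsp70- library at 5 h with a share of 58.1% has the lowest level of both genes.

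Both genes lie inside other genes. Ir85a, on chromosome 3R at 8794684 to 8796966 on the plus strand, lies within the genes Pif1A and Pif1B of the opposite strand, mostly in their introns, with 232 of its 2139 exon bases under their exons. Ir62a, on chromosome 3L at 1529439 to 1531259 on the minus strand, lies within an intron of Iml1 on the same strand, so unspliced RNA of Iml1 and RNA of Ir62a cannot be told apart in these counts. Ir62a passed no test in any comparison. Ir51b and Gr39a, which also went with the share, overlap the genes row and Mondo of the opposite strand, with 0 exon bases under their exons. Gr77a, which overlaps CG13252 of the opposite strand, did not go with it (r = 0.17, adjusted permutation p = 0.572). The part of such overlaps was not tested.

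The hsp70- strain had lower antennal markers without calls among the antennal receptors. In naive hsp70- against hsp70-1c, where 7.53% of all genes were called, all 14 antennal markers passed the test and fell, with a median log2 difference of -0.91. Orco fell by 1.00 (SE 0.15), Jhedup by 1.17 (SE 0.13), Obp19a by 1.62 (SE 0.17) and Os-C by 1.04 (SE 0.17). Their summed level was 1649 to 2643 CPM in naive hsp70- and 3621 to 4499 CPM in naive hsp70-1c, and none was at 0. Fat body markers were lower as well: 4 of the 10 tested fell, Lsp1alpha, fit, Lsp2 and apolpp, and the 12 of that list summed to 1584 to 2163 CPM in naive hsp70- and 4650 to 6022 CPM in naive hsp70-1c. The part of either list in the levels of the receptors was not tested. The 8 antennal tuning receptors tested had a median of -0.29 and none was called, against a median of -0.001 over all genes tested.

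The co-receptors in the same comparison were lower but did not pass the test over all genes. Ir76b was at 6.67 ± 0.91 CPM in naive hsp70- (n = 3) and 9.55 ± 0.81 CPM in naive hsp70-1c (n = 4), a difference of -0.53 (SE 0.16, adjusted p = 0.0537). Ir8a was at 1.78 ± 1.09 and 3.49 ± 0.94 CPM in the same groups, a difference of -0.96 (SE 0.35, adjusted p = 0.109), and Ir64a differed by -1.66 (SE 0.54, adjusted p = 0.0743, edgeR). In the fit of all 32 libraries Ir64a was called in this comparison. Ir25a was at 7.47 ± 3.24 CPM in naive hsp70- and 9.03 ± 1.47 CPM in naive hsp70-1c. At 5 h in hsp70- against hsp70-1c, none of 21 members was called (4.37% of all genes called, edgeR). At an unadjusted p under 0.05 there were 2, Ir8a with a difference of -0.87 (SE 0.29, adjusted p = 0.104) and Ir31a with one of 0.89 (SE 0.30, adjusted p = 0.115).

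Naive w+hsp70- against hsp70- gave no member called among 21 by edgeR and none by DESeq2, where 0.287% of all genes were called. At an unadjusted p under 0.05 there were 4 members. These were Ir76b, higher by 0.50 (SE 0.17), Ir85a, higher by 0.27 (SE 0.11), Ir64a, higher by 1.41 (SE 0.59), and Ir31a, lower by 0.53 (SE 0.24). At 5 h, where 0.266% of all genes were called, edgeR again called none of 21, with 1 at an unadjusted p under 0.05. DESeq2 was not run on the pairs of strains at 5 h and 24 h.

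No Gr was called in the comparisons above under the settings first chosen. Gr63a, the carbon dioxide receptor subunit, was called under others. It was at 0.84 to 2.90 CPM in w+hsp70-, 0.63 to 2.82 CPM in hsp70-, 2.17 to 5.53 CPM in hsp70-4c and 1.06 to 4.30 CPM in hsp70-1c over all times. Its adjusted p among naive strains was 0.0879 (edgeR), and it was called there by DESeq2 and in the fit of all 32 libraries. Its difference in w+hsp70- against hsp70-4c was -1.19 (SE 0.46, adjusted p = 0.122) in naive flies and -1.21 (SE 0.41, adjusted p = 0.0864) at 5 h.

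No bitter receptor tested was called between strains. Gr33a, Gr39a and Gr66a were tested in naive flies and at 5 h, Gr32a at 5 h only, and Gr89a was too low to be tested. Gr66a averaged 1.56 ± 0.59 CPM in naive w+hsp70- (n = 3), 1.72 ± 0.08 in naive hsp70- (n = 3), 1.68 ± 0.26 in naive hsp70-4c (n = 4) and 2.29 ± 0.79 in naive hsp70-1c (n = 4, SD). Over all times Gr33a averaged 1.46, 1.36, 1.48 and 1.40 CPM in the same order of strains, and Gr28b 2.01, 1.51, 1.79 and 1.76 CPM. No sugar receptor had the reads to be tested among naive strains, and Gr64f averaged 0.95 ± 0.57 CPM in w+hsp70-, 0.80 ± 0.26 in hsp70-, 1.03 ± 0.53 in hsp70-4c and 1.22 ± 0.80 in hsp70-1c over all times. At 5 h Gr5a entered the test among strains and was not called (adjusted p = 0.925, edgeR).

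The other responses to training gave no member called by edgeR or by DESeq2. At 5 h against naive there was none of 22 members in hsp70-4c (5.48% of all genes called), none of 11 in hsp70- (0.0305%) and none of 15 in w+hsp70- (1.93%). At an unadjusted p under 0.05 there were 3, 1 and 1. In hsp70-4c these were Ir64a, higher at 5 h by 0.88 (SE 0.30), Ir68a, lower by 0.66 (SE 0.24), and Ir76a, higher by 0.58 (SE 0.22). In hsp70- it was Ir68a, lower by 0.82 (SE 0.27), and in w+hsp70- it was Ir62a, lower by 0.53 (SE 0.20).

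The responses to training at 24 h gave no member called either. Against naive, none of 20 members was called in hsp70-1c (0% of all genes called) and none of 22 in hsp70-4c (0.923%), with 1 and 2 members at an unadjusted p under 0.05. Against 5 h, none of 20 was called in hsp70-1c (1.36%) and none of 22 in hsp70-4c (0.981%), with 2 and 1. The test of whether the 5 h response differed among the 4 strains called none of 25 members (0.0746% of all genes called), with 0 at an unadjusted p under 0.05, and DESeq2 called none.

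The other genes of chemosensation gave calls in several comparisons. Of 25 such genes, among them the odorant co-receptor Orco, membrane channels and signalling proteins, 21 were tested in naive flies. The list was not limited to partners of the Gr and Ir proteins. In hsp70-4c against hsp70-1c 1 was lower, Galphaq, a G protein subunit, by 0.35 (SE 0.10, edgeR adjusted p = 0.0275), and none was higher, where 10.1% of all genes were called. In w+hsp70- against hsp70-4c (9.91% of all genes called) 3 of the 21 were called, Orco and Amt, an ammonium transporter, lower and Galphaq higher. At 5 h in hsp70-4c against hsp70-1c (5.61%) 2 of 21 were called, Rh50 higher and Galphao lower. In naive hsp70- against hsp70-1c (7.53%) 4 fell and 2 rose, among them Orco, Snmp1, a pheromone co-receptor, by 0.65 (SE 0.13) and lush by 0.90 (SE 0.20), while the channel gene pain rose by 0.39 (SE 0.09). Of 13 taste sensillum markers tested in naive hsp70-4c against hsp70-1c, 2 were higher, Obp56e by 1.42 (SE 0.13) and Obp19b by 0.37 (SE 0.12).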

How the data were processed

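Per the labels' protocols, RNA-seq libraries of male heads were made with a directional kit and read from a single end for 75 bases. The submitters' processing notes name Trimmomatic for trimming, STAR 2.5.0a for alignment to dm6 and featureCounts 1.5.0-p1 for counting. The deposited counts are raw reads per gene, 1 file per library, and the authors' strand and multi-overlap settings are not given in the sources used here. Each file has 12 further lines of read-status totals, kept out of library sizes and tests. The share of reads assigned to no annotated feature is the line for reads without a feature, over all reads in those totals. Of 130 genes wholly under exons of the opposite strand, 111 had a read.

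Groups came from the sample titles. The naive hsp70-4c libraries are titled as a control for 5 h. Symbols matched 17253 of 17559 identifiers. Positions and exon lengths are those of the Ensembl BDGP6 annotation. Tests used edgeR 4.0.16 in R 4.3.3 with TMM scaling, filterByExpr, 1 mean per group and its quasi-likelihood F test in the robust form. Benjamini-Hochberg adjustment ran over all genes tested, with a call at an adjusted p under 0.05. Strain tests used the naive or the 5 h libraries of the 4 strains, or the 24 h libraries, and training tests all libraries of a strain. The 5 h and 24 h comparisons of single strain pairs were added after the data were seen. CPM use TMM sizes over all 32 libraries. Errors after ± are SD, and n are libraries. The p-values measure the spread between pools of flies. Genes named with values are the members of the role groups, those called and the 10 highest per kb, with up to 4 called genes of each other list. Exceptions are named with their values. Relations across libraries used permutation tests, exact for 6 libraries and 100000 resamples otherwise, two-sided. The permutations mixed all libraries of a relation, whatever their strain, time or replicate number. Scripts were tested on simulated data. The members and lists were chosen with earlier results of these data known.

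Replicates differed by more than sampling noise (chi-square per degree of freedom at least 6.05). Same-numbered libraries correlated over 0.1 in 3 of 3 pairs only for hsp70-1c at 24 h and 5 h (0.135 to 0.302). For hsp70-4c at 24 h and 5 h the 3 values were 0.490, -0.007 and 0.270. Alternatives were DESeq2 1.42.0, its size factors, other filters, all 32 libraries, the replicate block and each library left out.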

Additional observations from a re-analysis of the deposited data

Results flagged for a closer look

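In groups of 4 libraries, 5 member values stood apart from the other 3 by Dixon's test at 95%. Chance flags about 1 in 20 groups, and 42 were looked at. In naive hsp70-4c replicate 2, Ir85a was low at 153 CPM against 176 to 178 CPM in the other replicates, and Ir62a was low at 7.75 CPM against 12.1 to 12.3 CPM. That library also had the lowest share of reads assigned to no annotated feature of its group, 65.9%. The part of that share in these values was not tested. In naive hsp70-1c replicate 4, Ir68a was high at 8.50 CPM against 4.12 to 4.30 CPM. In naive hsp70-4c replicate 4, Ir21a was high at 1.97 CPM against 0.90 to 1.05 CPM. In naive hsp70-1c replicate 3, Gr39a was high at 2.56 CPM against 2.21 to 2.27 CPM in the others.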

How the results depend on the processing

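The calls of Ir75a and Ir75b held under every alternative run, each left-out library included. This covers the naive comparisons and the test among the 4 strains at 5 h. The pairs of strains at 5 h and 24 h were run under no alternative. Of the counts of members called, 88 under settings other than a left-out library or the covariate stayed within 1.5 times and 2 moved. No called value changed sign. These counts do not track which members were called. In naive hsp70- against hsp70-1c with all 32 libraries, Ir85a lost its call and Ir64a gained one. The count for hsp70-1c at 5 h against naive, 1, was 0 with all 32 libraries and 0 with the replicate block. It was also 0 with the share of reads assigned to no annotated feature as covariate. The count for naive hsp70- against hsp70-1c, 1, was 0 with that covariate. With all 32 libraries Ir85a lost its calls in naive flies too (adjusted p = 0.313 among strains). The cause was not tested. The replicate block changed no other count, and for hsp70-1c at 24 h against 5 h, whose libraries pair by number, it was 0 with and without the block. Leaving out 1 library gave 3 to 4 members among naive strains, 2 to 3 in naive hsp70-4c against hsp70-1c, 1 to 3 in naive hsp70- against hsp70-1c, 3 in naive w+hsp70- against hsp70-4c, 2 to 3 among strains at 5 h, 0 to 2 in hsp70-1c at 5 h against naive, and 0 in the other comparisons. Ir76b and Ir8a were among the members gained in naive hsp70- against hsp70-1c. With a lower or no filter on low counts Gr22e was also called in naive hsp70-4c against hsp70-1c. All its reads there were from the other strains, through which it passed the filter, so that call supports nothing. Depth limits most members: 100 of 126 entered no planned fit, and they are described here by their reads and levels.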

Other observations

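Gr22e, 1 of 6 genes of the Gr22 group, had no read in the 4 naive and 3 trained 5 h libraries of hsp70-4c and 1 read at 24 h, against 13 reads in w+hsp70-, 9 in hsp70- and 23 in hsp70-1c. It was chosen after its values were seen. Naive hsp70-1c had 10 reads, and hsp70-1c at 5 h had 6. Against a floor of 3 counts over the hsp70-4c group, these give ratios of 3.49 and 1.69. The ratios take the 10 and 6 reads as exact, so they are not lower bounds, and no fold difference is drawn from them. Gr22e was too low for the tests reported above. Gr22 genes are related in sequence, and how reads shared between them were counted is not given in the sources used here. Gr22f, the most abundant, had 61 reads in all.

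Gr43a, the fructose receptor, had 9 reads in the 10 hsp70-4c libraries together, against 40 in the 10 hsp70-1c libraries, 16 in the 6 of w+hsp70- and 11 in the 6 of hsp70-. Its level was 0 to 0.34 CPM in hsp70-4c and 0.25 to 0.74 CPM in hsp70-1c, and these ranges overlap. It was too low to be tested.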
